A study of Mus musculus with 6 samples.

Results

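Itih3, a heavy chain of the inter-alpha-trypsin inhibitor family, and 9 related genes of the hyaluronan matrix were followed in the stria vascularis of mice with and without pendrin. The 10 genes were the inter-alpha-trypsin inhibitor chains Itih1 to Itih5, the hyaluronan synthases Has1, Has2 and Has3, the hyaluronan receptor Cd44 and the link protein Hapln1. They were found by exact gene symbol and had 19 probe sets among the 45037 on the array that are not controls. Itih3 was included because its signal was higher on every knockout array, so its difference between the genotypes is described and not tested. The other 9 genes were taken for their place in the pathway.

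The stria vascularis is the vascularised epithelium of the cochlear lateral wall that secretes potassium into the endolymph. Total RNA was taken from it at postnatal day 10, before hearing starts, and hybridised to 6 Affymetrix mouse genome arrays, on which each probe set reads a stretch near the 3' end of a transcript. There were 3 arrays from Slc26a4 heterozygous mice (replicates 1, 3 and 5) and 3 from Slc26a4 knockout mice (replicates 2, 4 and 6). Slc26a4 encodes pendrin, an anion exchanger, and the heterozygous controls carry 1 mutant copy of it. The labels give no strain, no allele design, no sex and no statement on pooling, so p-values measure only the spread between these samples, which may be technical.

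Hyaluronan is a long, unbranched sugar polymer that synthases in the cell membrane extrude into the matrix. Heavy chains of the inter-alpha-trypsin inhibitor family circulate in plasma, joined through a chondroitin sulfate chain to bikunin, and the enzyme TSG-6 moves them onto hyaluronan, which cross-links and stabilises the matrix. Link proteins lock proteoglycans such as aggrecan onto hyaluronan, hyaluronidases cut it, and CD44 binds it at the cell surface. The liver is the main source of the plasma heavy chains, while Itih5 is made in many other tissues.

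Defining markers of the 3 main cell types of the stria were bright on all arrays. Signals ranged over the 6 arrays from 5326 to 6341 for Kcnq1, the potassium channel of marginal cells, from 9786 to 11513 for Dct, a melanin enzyme of intermediate cells, and from 7412 to 8690.2 for Cldn11, the claudin that seals the basal cell layer. Tyrp1, another melanocyte gene, lay between 1.03 and 13.1 on its probe set. Slc26a4 itself had 220.8, 248 and 1006 on heterozygous arrays and 75.5, 106 and 154 on knockout arrays, without overlap. Its log2 difference was -1.69 ± 0.50 (SE, limma adjusted p = 0.371), and -1.02 without heterozygous replicate 5. Which part of the gene the knockout allele alters is not given in the sources used here. Knockout replicate 4 stood apart from the rest. The 5 endothelial markers summed to 1545 there, against 2967 to 5627 on heterozygous arrays and up to 4275 on the other knockout arrays. Heterozygous replicate 5 also stood apart. The root, spindle and outer sulcus markers, Slc26a4 among them, summed to 19076 there. They summed to 11155 on heterozygous replicate 1 and to at most 12216 on knockout arrays. The Schwann cell and neuron markers with a probe set, Snap25 and Nefl, summed to 306 on heterozygous replicate 5. Their sum was 29.6 on heterozygous replicate 1 and at most 58.9 on knockout arrays. On heterozygous replicate 3 Epyc had 6598, against 10405 on replicate 5, Snap25 32.7 against 212 and Nefl 18.6 against 93.3.

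Of the 10 genes, 4 had at least 1 probe set above the signal cutoff used for testing, a mean of 46.3 over the arrays. These were Itih2, Itih3, Itih5 and Cd44, with 8 probe sets. Has1, Has2, Has3, Hapln1, Itih1 and Itih4 had no probe set above it, and 11 probe sets in all lay below. Signals are in arbitrary units, and those of different probe sets cannot be ranked against each other. Differences are given as knockout minus heterozygous on a log2(signal + 16) scale, on which the change of a dim gene comes out too small. Of the 7 tested probe sets besides that of Itih3, 0 passed limma's test at an adjusted p under 0.05, and 0 had an unadjusted p under 0.05. Over all 27022 probe sets tested, 0.0037% passed the adjusted threshold, which was 1 probe set, of Fgf18. Fgf18 had a heterozygous mean of 42.3, under the cutoff. It was tested only through its knockout signals, so its direction was fixed by the filter. At the unadjusted threshold 9.2% of all probe sets were higher and 2.48% lower in knockout samples. The median signal was also higher on each knockout array (88.8 to 104.8) than on each heterozygous one (76.7 to 82.3). Its part in the values of dim genes was not tested.

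**Figure D1:**
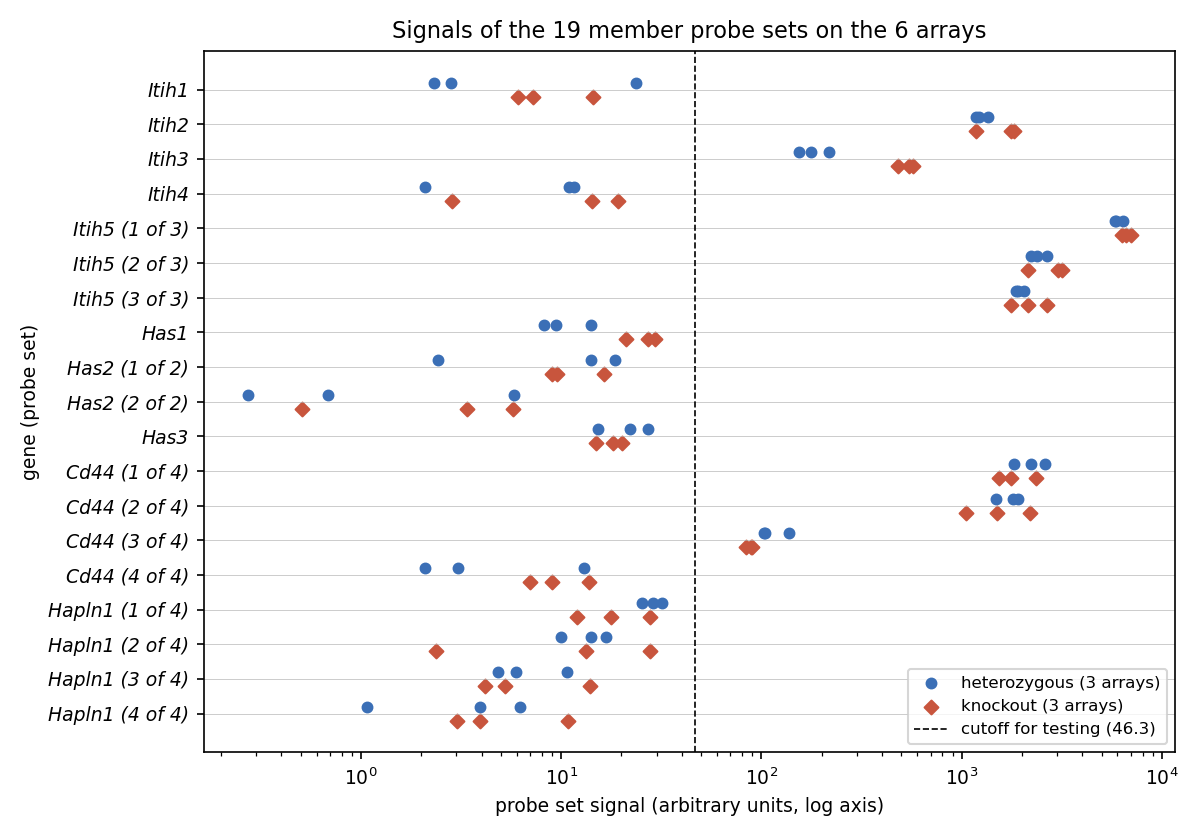
Signals of the 19 probe sets of the 10 genes on each array, in arbitrary units on a log axis, with circles for heterozygous and diamonds for knockout arrays. The dashed line is the cutoff of 46.3. Among the 8 probe sets to its right, the knockout points of Itih3 lie above all its heterozygous points, and those of the third Cd44 probe set lie below.

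Itih3 had signals of 153, 218 and 177 on heterozygous replicates 1, 3 and 5 and of 544, 480 and 568 on knockout replicates 2, 4 and 6, on its only probe set. The lowest knockout array stood well above the highest heterozygous one, which is what chose the gene. The mean of the heterozygous samples was 183 ± 32.7 (SD, n = 3) and that of the knockout samples 531 ± 45.4 (SD, n = 3). The log2 difference was 1.47 ± 0.20 (SE), or 2.77-fold on the offset scale. Among the 12421 genes with a tested probe set, each taken at its brightest one, 0.588% were higher in knockout samples by 1 or more on that scale, 6.07% had all knockout arrays above all heterozygous ones, and 7.04% had them all below. These shares describe the array as a whole, and nothing follows from them for a gene picked by this pattern. The difference of Itih3 kept a similar size when any 1 array was left out, from 1.36 without heterozygous replicate 1 to 1.59 without heterozygous replicate 3. Without knockout replicate 4, the array with low endothelial signal, it was 1.54.

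Itih3 lies between Itih4 and Itih1 on mouse chromosome 14, in a cluster of heavy chain genes. Both neighbours were dim. Itih1, another heavy chain that is carried on hyaluronan, had 2.32, 2.83 and 23.7 on heterozygous and 14.4, 6.10 and 7.25 on knockout arrays. Itih4, an acute-phase plasma protein that does not bind bikunin, had 2.09, 10.9 and 11.6 on heterozygous and 14.3, 2.85 and 19.3 on knockout arrays. In both genes the groups overlapped and each array was below the cutoff. The sequences at the starts of the 3 genes are shown because Itih3 alone in this cluster gave a signal above the cutoff. Each runs 5′ to 3′ on the gene's strand, from 250 bases before to 50 bases after the RefSeq gene start (GRCm38.p6), and capitals mark matches to the motifs searched.
Itih3 (chr14:30923538-30923837, minus strand): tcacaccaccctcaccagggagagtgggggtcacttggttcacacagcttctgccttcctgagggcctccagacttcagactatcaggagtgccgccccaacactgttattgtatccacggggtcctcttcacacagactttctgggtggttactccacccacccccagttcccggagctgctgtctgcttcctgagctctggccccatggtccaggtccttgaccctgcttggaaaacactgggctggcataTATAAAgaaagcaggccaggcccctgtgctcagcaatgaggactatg
Itih1 (chr14:30943240-30943539, minus strand): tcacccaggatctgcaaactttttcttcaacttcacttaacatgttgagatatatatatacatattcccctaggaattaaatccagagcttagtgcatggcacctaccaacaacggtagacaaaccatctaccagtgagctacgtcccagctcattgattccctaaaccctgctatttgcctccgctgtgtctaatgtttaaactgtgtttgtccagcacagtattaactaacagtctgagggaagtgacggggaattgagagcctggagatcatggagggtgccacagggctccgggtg
Itih4 (chr14:30886226-30886525, plus strand): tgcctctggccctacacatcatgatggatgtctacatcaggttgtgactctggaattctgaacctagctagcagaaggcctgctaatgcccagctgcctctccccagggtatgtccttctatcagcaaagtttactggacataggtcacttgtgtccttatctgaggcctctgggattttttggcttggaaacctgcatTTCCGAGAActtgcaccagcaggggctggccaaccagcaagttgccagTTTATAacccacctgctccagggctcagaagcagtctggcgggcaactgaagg
The motifs were TATAAA (the TATA box), TTCNNNGAA (a STAT site), TGANTCA (an AP-1 site) and AACAAT (a SOX site), on both strands. The Itih3 window held TATAAA at bases 254 to 259, after the gene start and not before it. The Itih4 window held it on the opposite strand at bases 248 to 253, across the gene start. It also held TTCNNNGAA at bases 200 to 208, with no overlap between matches. The Itih1 window held none of the 4 motifs. Of 32851 promoter windows of the same length, 13.6% held TATAAA, 8.3% TTCNNNGAA, 7.81% TGANTCA and 10.7% AACAAT. These matches describe the letters and show no binding.

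The genes that flank the cluster did not pass the test in either direction. Nek4, a kinase gene next to Itih1 among genes with a probe set, had a log2 difference of 0.01 ± 0.22 (SE, limma adjusted p = 0.986). Mustn1, a small nuclear protein of muscle and skeletal tissue, lies on the other side beyond Itih4 and had 0.13 ± 0.26 (SE, limma adjusted p = 0.880). Farther out, the values were 0.08 for Stimate, -0.19 for Sfmbt1, 0.06 for Spcs1 and 0.13 for Glt8d1, with limma adjusted p between 0.670 and 0.920. The genotypes overlapped in all 6 of these flanking genes. With quantile normalization the values of Nek4, Mustn1 and Stimate were below 0. Several of these small values moved by more than 1.5 times when 1 array was left out, Sfmbt1 to -0.09 without knockout replicate 4 among them.

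**Figure D2:**
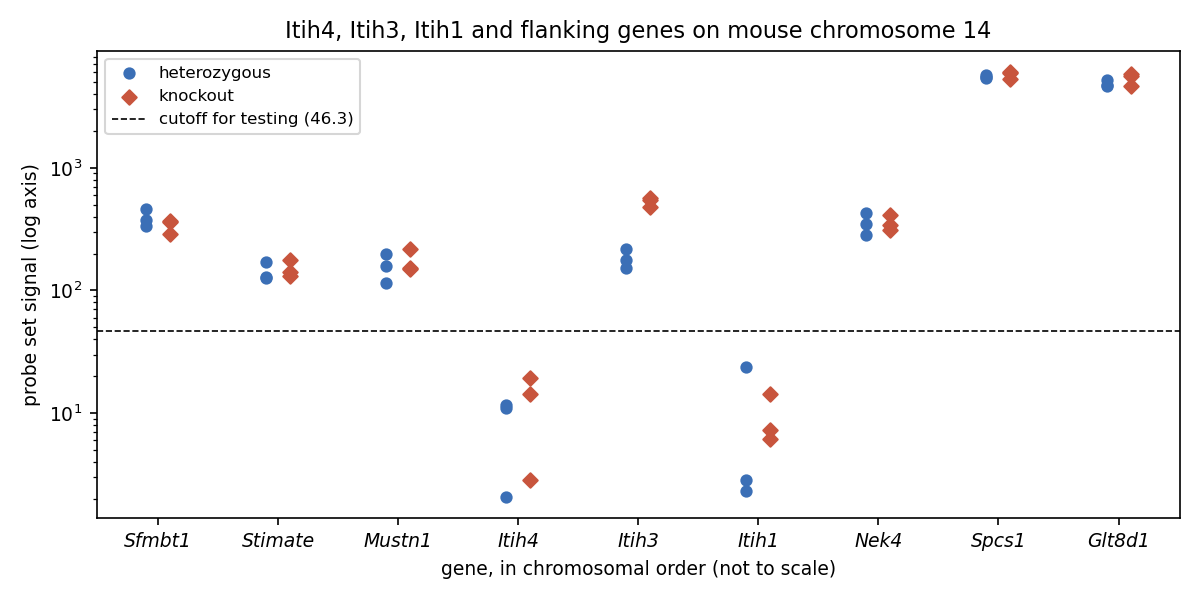
Signals of Itih4, Itih3, Itih1 and the 3 nearest genes with a probe set on either side, in chromosomal order and not to scale, with circles for heterozygous and diamonds for knockout arrays on a log axis. Itih3 is the only one of the 9 genes in which the genotypes do not overlap, the pattern for which it was chosen. Itih4 and Itih1 lie below the cutoff of 46.3.

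The other heavy chain genes above the cutoff, Itih2 and Itih5, are next to each other on chromosome 2. Itih2, whose protein is joined with that of Itih1 and bikunin in inter-alpha-inhibitor, had signals of 1349.8, 1217 and 1179.6 on heterozygous and 1769.7, 1183 and 1827 on knockout arrays. Knockout replicates 2 and 6 were above every heterozygous array, while knockout replicate 4 was at the heterozygous level. The log2 difference was 0.32 ± 0.18 (SE), with a 95% interval from -0.08 to 0.73 and a limma adjusted p of 0.516. Without knockout replicate 4 it was 0.52 (limma adjusted p = 0.401), and without knockout replicate 6 it was 0.21. Itih3, by contrast, had a high signal on that array, but the difference between the 2 genes was not tested.

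Itih5, a heavy chain gene of skin, fat and other tissues outside the liver, had 3 probe sets, all above the cutoff. On the probe set with the highest signal the values were 5819, 6374 and 5904 on heterozygous and 6342, 6580.2 and 7031 on knockout arrays. The groups overlapped, since heterozygous replicate 3 was above knockout replicate 2. The log2 difference was 0.14 ± 0.08 (SE), with a 95% interval from -0.04 to 0.32 and a limma adjusted p of 0.534. The other probe sets gave 0.18 ± 0.16 and 0.15 ± 0.16 (SE, limma adjusted p = 0.701 and 0.748). On both of these, knockout replicate 4 had the lowest signal of the 6 arrays, at 2151 and 1759.8. Under median centring of the arrays the sign turned, to -0.06. That centring made the array medians over all 45037 probe sets equal. The median difference of the 27022 tested probe sets was then -0.20, and the value of Itih5 was above it.

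**Figure D3:**
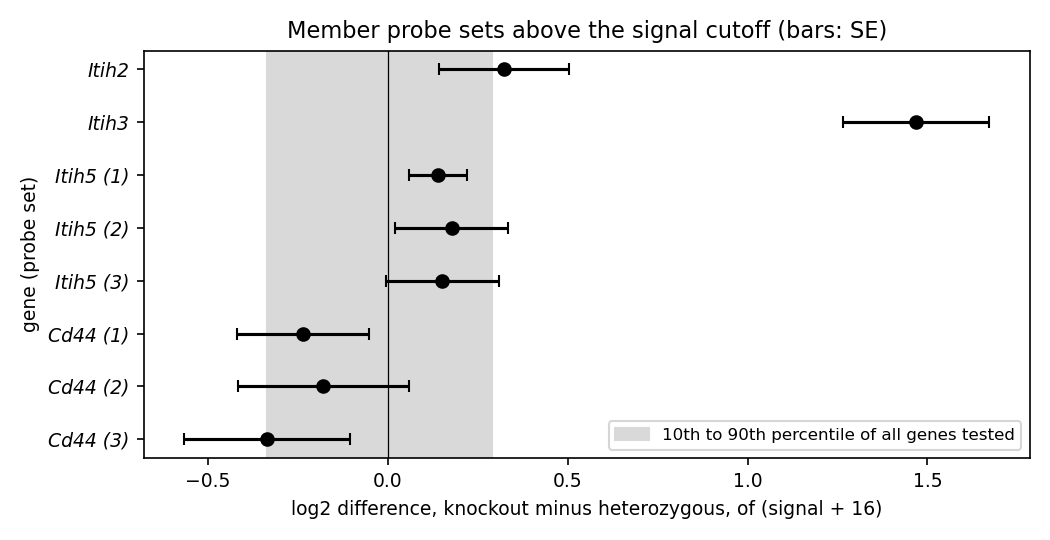
Log2 differences, knockout minus heterozygous, of log2(signal + 16) for the 8 probe sets above the cutoff, with standard errors as bars. The grey band spans the 10th to the 90th percentile of all genes tested, from -0.34 to 0.29. Itih3 lies at 1.47, Itih2 at 0.32, the Itih5 probe sets at 0.14 to 0.18 and those of Cd44 at -0.33 to -0.18.

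The 3 hyaluronan synthases were all below the cutoff. Has1 had signals of 14.1, 9.44 and 8.23 on heterozygous and 21.1, 27.1 and 29.3 on knockout arrays. Each knockout array was above each heterozygous array, at signals below the cutoff. Of the 18015 probe sets below the cutoff, 9.19% had all knockout arrays above all heterozygous ones. The log2 difference of Has1 was 0.66 with the offset of 16, and 1.23 with an offset of 1, so its size depends on how dim signals are treated.

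Has2, the main synthase of the embryo, had 14.1, 18.7 and 2.41 on heterozygous and 8.98, 16.3 and 9.53 on knockout arrays on the brighter of its 2 probe sets. The other probe set stayed between 0.272 and 5.79. Has3 had 21.9, 27.0 and 15.2 on heterozygous and 20.2, 15.0 and 18.2 on knockout arrays. The genotypes overlapped on all of these probe sets, and every array was below the cutoff.

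Cd44, the main cell surface receptor for hyaluronan, had 4 probe sets, of which 3 were above the cutoff. The probe set with the highest signal had 1819, 2207 and 2606 on heterozygous and 1763, 1541 and 2350.3 on knockout arrays. Knockout replicates 2 and 4 were below every heterozygous array, and knockout replicate 6 was above 2 of them. The log2 difference was -0.24 ± 0.18 (SE), with a 95% interval from -0.65 to 0.18 and a limma adjusted p of 0.658. It was -0.10 without knockout replicate 4, -0.11 without heterozygous replicate 5, -0.37 without heterozygous replicate 1 and -0.40 without knockout replicate 6. The second probe set had 1476, 1795 and 1907 against 1503, 1050.5 and 2194, a log2 difference of -0.18 ± 0.24 (SE, limma adjusted p = 0.810).

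The third Cd44 probe set had 104, 104 and 137 on heterozygous and 89.3, 88.2 and 83.8 on knockout arrays, with no overlap. Its log2 difference was -0.33 ± 0.23 (SE, limma adjusted p = 0.611). Over all tested probe sets, 5.97% had every knockout array below every heterozygous one. The fourth probe set lay between 2.09 and 13.7. The 3 probe sets above the cutoff thus had the same sign, and none of them passed the test.

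Hapln1, the cartilage link protein, was below the cutoff on all 4 of its probe sets. On the brightest the signals were 31.7, 25.3 and 28.9 on heterozygous and 17.7, 12.0 and 27.9 on knockout arrays. Knockout replicate 6 lay within the heterozygous range and the other knockout arrays below it. The log2 difference of -0.37 was -0.21 without knockout replicate 4 and -0.06 when the 4 probe sets were averaged. The remaining probe sets lay between 1.07 and 27.9.

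Around these genes, 41 others of the hyaluronan pathway were examined in 6 lists: precursor enzymes, degradation, receptors, heavy chain partners, hyalectans with their link proteins, and partners of Cd44. A probe set with 1 gene symbol was present for 37 of them, 28 were above the cutoff, and each was read at its brightest probe set. None of the 28 passed (0 at a limma adjusted p under 0.05, smallest adjusted p = 0.371), where 0.00805% of all genes passed. At an unadjusted p under 0.05 there were 3 higher, Hmmr, Stab1 and Bcan, and 1 lower, Tnfaip6, which is 14.3% of the 28. Of all genes, 6.44% had such a p, 3.21% higher and 3.23% lower. Their median log2 difference was -0.03, and that of all genes was -0.04. Of the 28, 10 had a difference above 0, and 43.1% of all genes did.

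**Figure D4:**
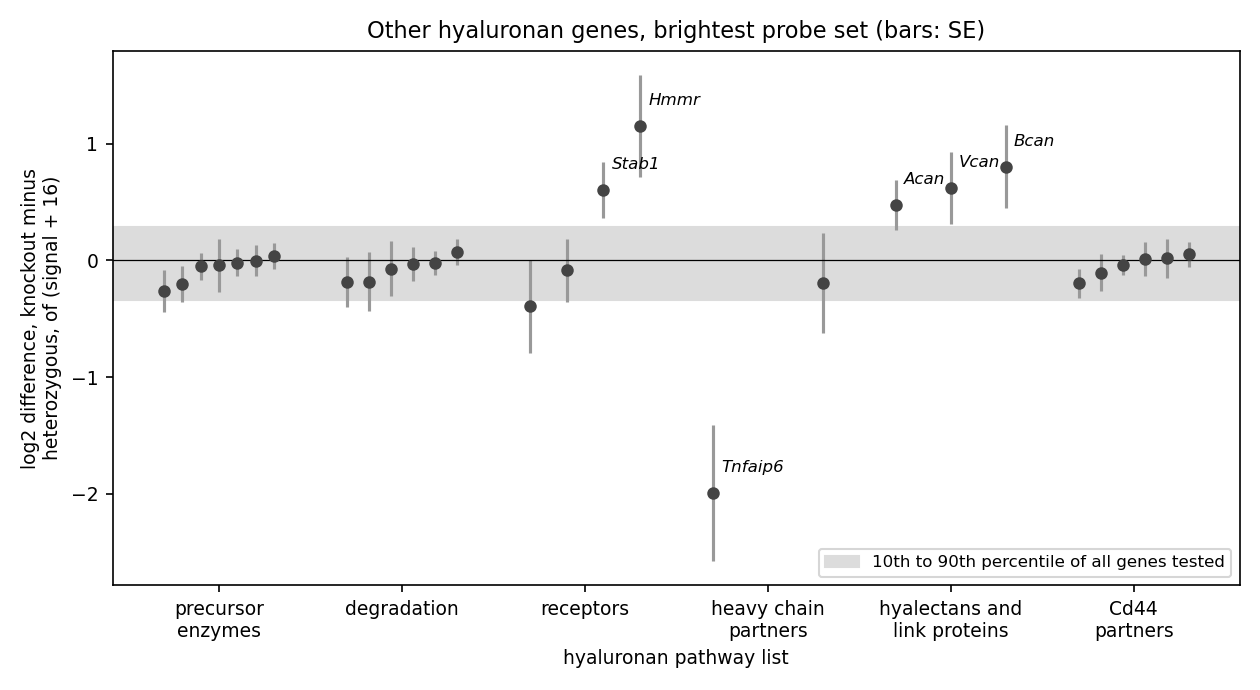
Log2 differences, knockout minus heterozygous, of log2(signal + 16) for the 28 other hyaluronan genes above the cutoff, by list, with standard errors as bars. The grey band spans the 10th to the 90th percentile of all genes tested, from -0.34 to 0.29. Tnfaip6 lies lowest at -1.99 and Hmmr highest at 1.15, and neither passed the test. Genes beyond 0.4 in size are named.

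Among the heavy chain partners, Tnfaip6, which encodes the TSG-6 enzyme that moves heavy chains onto hyaluronan, had signals of 183, 759 and 500.2 on heterozygous and 243, 49.1 and 59.0 on knockout arrays. Knockout replicates 4 and 6 were far below the heterozygous arrays, while knockout replicate 2 was above heterozygous replicate 1. The means were 481 ± 289 and 117 ± 109 (SD, n = 3 each), and the log2 difference was -1.99 ± 0.58 (SE), with an unadjusted p of 0.00694 and a limma adjusted p of 0.371. Its sign was the opposite of that of Itih3. Leaving out 1 array gave differences from -2.62 without knockout replicate 2 to -1.57 without heterozygous replicate 3, and the adjusted p stayed between 0.207 and 0.864.

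Ptx3, a pentraxin that binds TSG-6 and heavy chains in the cumulus matrix of the ovary, had a log2 difference of -0.20 ± 0.43 (SE, limma adjusted p = 0.894) on its brighter probe set. Its other probe set had the opposite sign, at 0.36 ± 0.31 (SE, limma adjusted p = 0.687). On the brighter probe set the sign turned without heterozygous replicate 5, to 0.31. Ambp, from which bikunin is cut, was below the cutoff on all arrays, with signals from 1.98 to 19.4. The partner chain on which heavy chains travel in plasma was therefore not measured above the cutoff in this tissue.

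Among the receptors, Stab1, a scavenger receptor of macrophages and sinusoidal endothelium, had 283, 539 and 421 on heterozygous and 696, 564 and 600.1 on knockout arrays. Every knockout array was above every heterozygous one, a pattern that 6.07% of all genes had. The log2 difference was 0.60 ± 0.24 (SE, limma adjusted p = 0.387), and 0.36 without heterozygous replicate 1. The 7 macrophage markers summed to between 3042 and 4320.4 on heterozygous and between 3370.1 and 4489 on knockout arrays, and Csf1r made up most of each sum. Of the 7 markers 6 had a difference above 0, and 2 of them, Cd68 and Cd14, had every knockout array above every heterozygous one, Cd68 by 0.48 and Cd14 by 0.51 in the log2 mean (limma, adjusted p of 0.419 and of 0.438). Their part in the values of Stab1 was not tested. Hmmr, a hyaluronan-binding protein of the mitotic spindle, had 34.7, 46.7 and 74.5 against 124, 267 and 63.1. Its log2 difference of 1.15 ± 0.44 (SE, limma adjusted p = 0.376) was 0.67 without knockout replicate 4, where its signal was highest. Its 4 other probe sets were below the cutoff.

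The hyalectans, proteoglycans that bind hyaluronan through their globular head, had positive differences in all 3 tested members. Acan, the aggrecan of cartilage, had 2247, 2138 and 1774 on heterozygous and 2949.5, 3880.2 and 2014 on knockout arrays. Knockout replicate 6 was below 2 of the heterozygous arrays. The log2 difference was 0.48 ± 0.21 (SE, limma adjusted p = 0.428). It was 0.25 without knockout replicate 4, which had the highest Acan signal, and 0.72 without knockout replicate 6. Bcan, the brevican of nervous tissue, had 0.80 ± 0.36 (SE, limma adjusted p = 0.428) on its brighter probe set, and 0.44 without heterozygous replicate 1. On its other probe set the log2 means were 6.52 in heterozygous and 6.41 in knockout samples, so its direction was not settled. Vcan, the versican of many loose matrices, had 125, 144 and 60.1 on heterozygous and 141, 189 and 178 on knockout arrays (limma adjusted p = 0.464). Hapln3, a link protein, was below the cutoff, with 55.7, 48.8 and 58.7 against 9.03, 8.51 and 36.2 and no overlap. Of all probe sets below the cutoff, 4.12% had every knockout array below every heterozygous one.

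The lists for making and breaking down hyaluronan had small differences. Of the 7 precursor enzymes all were above the cutoff, with a median log2 difference of -0.04. Gfpt2, which starts the hexosamine pathway, had -0.26 ± 0.18 and Ugp2, which makes UDP-glucose, -0.20 ± 0.15 (SE, limma adjusted p = 0.618 and 0.641). Another Ugp2 probe set had the opposite sign, at 0.19 ± 0.13 (SE, limma adjusted p = 0.587), with every knockout array above every heterozygous one. Of all tested probe sets, 11.2% had that pattern. The remaining Ugp2 probe sets had -0.05, -0.14 and -0.33. Of 11 degradation genes 6 were above the cutoff, with a median of -0.05. Gusb, the lysosomal glucuronidase, had -0.19 ± 0.21 and Hyal3, a hyaluronidase family member, -0.18 ± 0.25 (SE, limma adjusted p = 0.776 and 0.819). Of 7 genes for ligands, anchors and sheddases of Cd44, 6 were above the cutoff, with a median of -0.01. Among them, Msn, which ties the CD44 tail to actin, had -0.20 ± 0.13 and Nf2, a related protein that holds back growth, -0.10 ± 0.16 (SE, limma adjusted p = 0.583 and 0.836). Without knockout replicate 4 the log2 difference was -0.03 for Ugp2, -0.01 for Gusb, -0.06 for Hyal3 and -0.06 for Msn.

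The 5 genes whose pattern over the 6 arrays was most like that of Itih3 were found among 12420 other genes. The measure was the root mean square difference of the log2 values after each gene's own mean was subtracted. Meox2, a homeobox transcription factor of mesenchyme, was nearest at 0.12, with 30.2, 45.4 and 39.5 on heterozygous and 121, 94.3 and 125 on knockout arrays. Npr3, the clearance receptor for natriuretic peptides, followed at 0.18. Hsd11b2, which inactivates glucocorticoids, was at 0.20, the matrix protein Thbs1 at 0.21 and Scn7a, a sodium-sensing channel, at 0.22. In all 5 the heterozygous array with the lowest signal was replicate 1, as it was for Itih3. They were picked for this likeness, so their higher knockout values are a description. Meox2 and Hsd11b2 had heterozygous means of 38.4 and 32.8, under the cutoff. Both entered the search only through their knockout signals, so their direction was also fixed by the filter.

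**Figure D5:**
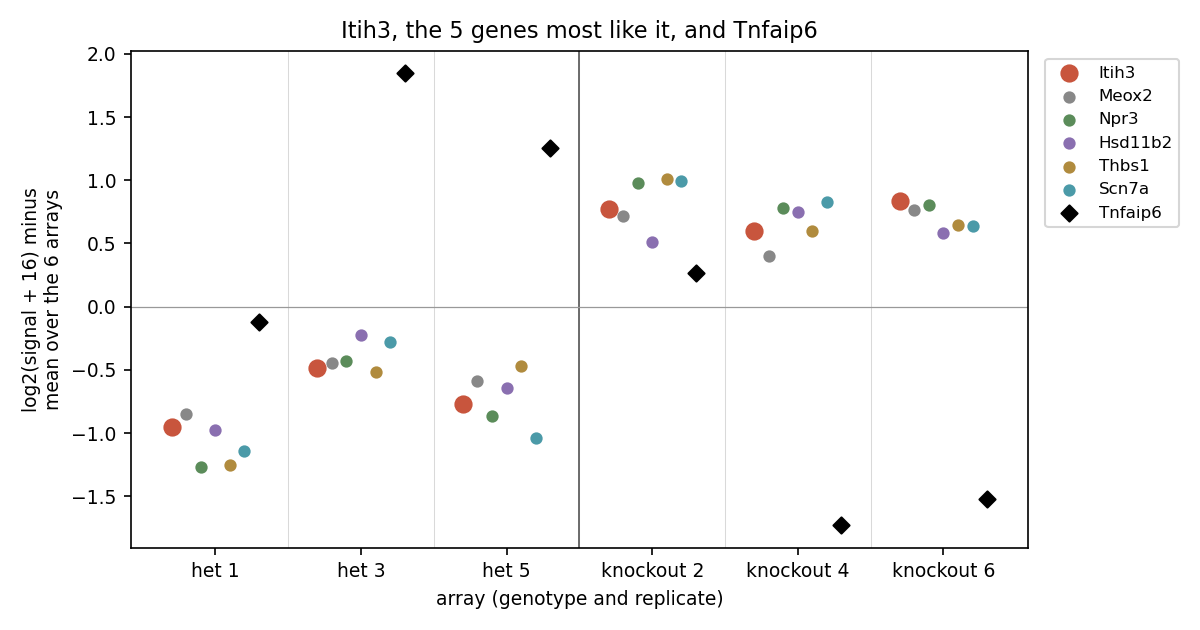
Values of log2(signal + 16) on each array, less the gene's mean over the 6 arrays, for Itih3, the 5 genes most like it and Tnfaip6. Itih3 and the 5 genes lie below 0 on the 3 heterozygous arrays and above 0 on the 3 knockout arrays. Tnfaip6 is spread widely within each genotype, with signals from 183 to 759 on heterozygous and from 49.1 to 243 on knockout arrays.

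Markers of other cells differed in mean between the genotypes, though none passed the limma test over all probe sets. All 4 tested of 7 bone markers (Ibsp, Dmp1, Phex and Col1a1) had higher knockout means, with a median log2 difference of 1.25. The summed bone signal was 3052 to 7284 on heterozygous and 6951 to 12168 on knockout arrays. All 3 tested of 5 osteoclast markers did too, with sums of 375 to 517 and 711 to 1728. Mmp9 among them had a heterozygous mean of 32.9, under the cutoff. It was tested only through its knockout signals, so its direction was fixed by the filter. The 7 cartilage markers, Acan among them, summed to 21971 to 25106 and 25814 to 30570 with a median of 0.15. Of these, 5 were above 0 and 2 below, Matn1 at -0.12 and Comp at -0.06. Other lists had a median log2 difference below 0. Of the 4 root, spindle and outer sulcus markers 3 had lower knockout means and Anxa1 alone was higher. Their median was -1.34, with sums of 11155 to 19076 and 9443 to 12216. Aqp4 among them had a knockout mean of 34.9, under the cutoff. It was tested only through its heterozygous signals, so its direction was fixed by the filter. Slc26a4, also in this list, is the gene altered in the knockout, so its lower value cannot be read as a change in these cells. That leaves Epyc, which had a lower knockout mean, and Anxa1, which had a higher one. The 5 endothelial markers had a median of -0.57, with 4 below 0. Their sums were 2967 to 5627 on heterozygous and 1545 to 4275 on knockout arrays, the lowest on knockout replicate 4. The sums of the other knockout arrays lay within the heterozygous range, so no fall common to the knockout arrays was seen. The 7 fibrocyte markers had no common direction, with 3 above 0, 4 below and a median of -0.02. They ran from -1.61 for Lum to 0.29 for Otos. Their sums were 23296 to 33737 on heterozygous and 28122 to 30485 on knockout arrays. The part of these cells in the values of Itih3, Acan and Tnfaip6 was not tested, and in bulk tissue more cells of a type and more RNA per cell cannot be told apart. Hepatocyte markers, from the main source of plasma heavy chains, were mostly dim. Alb, Apoa1, Fga and Ahsg were below the cutoff, Apoh lay between 30.4 and 77.9, and the 5 summed to 106 to 198 on heterozygous and 62.8 to 103 on knockout arrays.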

How the data were processed

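Per the labels' protocols, RNA of the stria vascularis was purified with a Qiagen kit, and NuGEN Ovation chemistry was used to amplify and label it. The deposited values are probe set signal intensity on a linear scale, made by the authors with GCOS per the submitters' processing notes. With the 2% highest and 2% lowest values removed, each array had a mean of 500.002, the mark of a scaling before deposit, so no further scaling was applied. The arrays were not level in their medians, which were 82.3, 76.7 and 81.1 on heterozygous replicates 1, 3 and 5. On knockout replicates 2, 4 and 6 they were 89.9, 104.8 and 88.8. The share of probe sets above the cutoff was 57.5% to 58.4% on heterozygous and 59.6% to 62.0% on knockout arrays. Detection calls were not used here. The number of arrays limits the precision, and an exact permutation test of 3 against 3 cannot give a p under 0.1.

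Genotype and replicate came from the sample titles. After 64 control probe sets were left out, values were transformed to log2(signal + 16). Probe sets with a mean signal under the 40th percentile (46.3) were not tested. For the rest, R 4.3.3 and limma 3.58.1 were used (lmFit and eBayes, trend on). Tests were two-sided, p-values were adjusted over 27022 probe sets by Benjamini-Hochberg, and the threshold was 0.05. Symbols came from the platform annotation. Of the probe sets 34945 had 1 symbol, 932 several and 9160 none, and 34741 were matched to RefSeq (GRCm38.p6) by gene identifier. RefSeq promoter windows were present for 8 of the 10 genes. The test was checked on simulated data.

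The members and lists were chosen with earlier results of these data known. Named were all members, Slc26a4, the 2 genes of smallest p in each pathway list, 3 genes on either side of the Itih3 cluster and the 5 genes most like Itih3. Fgf18, Ambp, Vcan, Hapln3 and the markers were named after their values were seen. Alternatives were other offsets, scalings, filters, variance models, array weights, ways to sum up probe sets, and leaving out each array. Python 3.11.15 with matplotlib 3.10.9 drew the figures.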

Additional observations from a re-analysis of the deposited data

How the results depend on the processing

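No member probe set other than that of Itih3, and no hyaluronan pathway gene, passed the threshold under any of the 17 alternatives in which they were counted (limma, 0 in each). The log2 difference of Itih3, whose sign was fixed by its choice, was 1.275 with an offset of 64 and 1.27 with median centring. It was 1.36 to 1.59 with 1 array left out. Under median centring the median difference of the tested probe sets was -0.20. Over all probe sets, where 1 passed, 3 did with quantile normalization, 2 with cyclic loess, 3 with median centring, 0 without a filter (4301 at an unadjusted p under 0.05), 0 with the 60th percentile filter (1588), 23 with array weights and 11 with 1 probe set per gene. With 1 array left out the number ranged from 0 to 13, the highest without knockout replicate 4. Differences that did not pass turned under median centring for Itih5 (-0.059), Glt8d1 (-0.068), Spcs1 (-0.14), Mustn1 (-0.067), Nek4 (-0.18) and Stimate (-0.12). All of them were above the median of the tested probe sets under that centring. Quantile normalization gave -0.030 for Mustn1, -0.019 for Nek4 and -0.10 for Stimate, and cyclic loess gave -0.0076 for Stimate. Nek4 was -0.10 with array weights, -0.12 without heterozygous replicate 1 and -0.10 without knockout replicate 4. Mustn1 was -0.029 without knockout replicate 2 and -0.053 without heterozygous replicate 5, and Stimate was -0.037 without knockout replicate 2. Ptx3 was 0.082 with the mean of its probe sets and 0.31 without heterozygous replicate 5. With 1 array left out, Mustn1 ranged from -0.053 to 0.29, Nek4 from -0.12 to 0.15, Stimate from -0.037 to 0.20 and Ptx3 from -0.63 to 0.31. The cause was not tested. No paired analysis was made, because the titles number the samples serially over both genotypes and do not say whether any were paired. Below the cutoff of 46.3, low signal limits what can be said of Has1, Has2, Has3, Hapln1, Itih1 and Itih4.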
